A study of Rattus norvegicus with 8 samples.

Results

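The unfolded protein response genes examined here are 10 genes, Atf4, Atf6, Xbp1, Ddit3, Herpud1, Sdf2l1, Creld2, Pdia4, Manf and Calr. They were chosen by gene symbol from the probe sets that the platform annotation assigns to 1 gene. All 10 were measured, each by 1 probe set, among 14506 genes with a value. RNA came from the dorsal ipsilateral lumbar spinal cord of adult male Wistar rats, taken at day 14 after transection of the L5 spinal nerve. The HDACI group, 4 rats with 1 array each, received the class I histone deacetylase inhibitor MS-275 at 30 nmol/d through an intrathecal osmotic pump, started before the injury. The vehicle group, also 4 rats, received the DMSO and saline solvent by the same route, so every animal carried both a pump and a nerve injury, and uninjured cord was not analysed here. Signals are from Affymetrix Rat Gene 1.0 ST arrays, as RMA values on the log2 scale.

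The unfolded protein response is the set of signals by which a cell answers unfolded protein in the endoplasmic reticulum (ER). Sensors in the ER membrane start it. The kinase PERK (gene Eif2ak3) slows translation and favours production of the transcription factor ATF4, which can induce CHOP (gene Ddit3). ATF6 is cut in the Golgi to release a transcription factor, and the nuclease IRE1 (gene Ern1) starts the splicing of Xbp1 mRNA. The released and spliced factors raise transcription of ER chaperones, oxidoreductases and the machinery that returns misfolded protein to the cytosol for degradation. A probe set that averages along a transcript does not separate spliced from unspliced Xbp1, and RNA levels do not report how much ATF6 has been cut.

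Of the 10 genes, 8 had a lower mean with HDACI than with vehicle and 2, Atf6 and Ddit3, a higher one. Over all genes 57.9% had a lower mean, the share to set beside counts below that give none. The differences of the 10 were small, from -0.18 to 0.05 on the log2 scale. Their median was -0.09 against -0.01 over all genes. None passed an unadjusted p of 0.01 in limma, where 0.855% of all genes were lower and 0.607% higher. None passed Benjamini-Hochberg adjustment either, as was so for every one of the 14506 genes (0.00% called, smallest adjusted p = 0.610). At an unadjusted p under 0.05, 2 of the 10 were lower, Manf and Calr, where 4.96% of all genes were, and none was higher (2.79% of all genes). Manf was the only one of the 10 whose groups did not overlap, where 3.60% of all genes were lower and 1.42% higher without overlap. One array stood out: vehicle replicate 2 had the highest signal of all 8 arrays for every one of the 10 genes, where it was the highest for 17.9% of all genes. Without it 7 of the 10 had a lower mean, against 57.9% of all genes. The median of the 10 was then -0.02, the same as the median of all genes without that array. Leaving out an array that is the highest for all 10 can only raise their differences, so the direction of that change was fixed. With each array left out in turn, the median ran from -0.10 (without vehicle replicate 1) to -0.02.

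**Figure D1:**
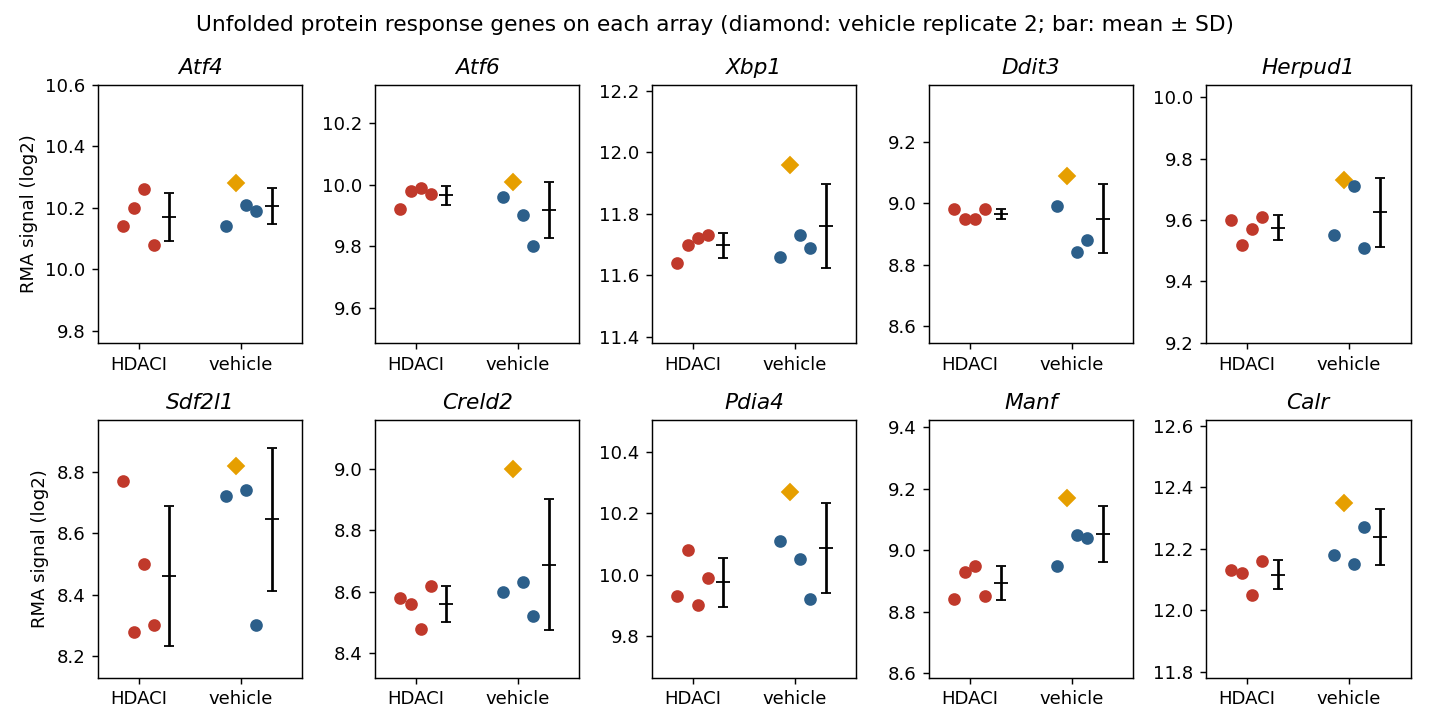
RMA signal (log2, y axis, the same span of 0.84 in each panel) of the 10 genes on the 4 HDACI arrays (red) and the 4 vehicle arrays (blue, with vehicle replicate 2 as an orange diamond), each group beside its mean and SD. The diamond is the highest point in every panel, and only for Manf do all HDACI points lie below all vehicle points.

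The promoters were searched for elements known from this response. The genes were chosen for their part in the response, so a match is not independent of the choice. RefSeq promoter windows of the GRCr8 assembly, 250 bases before a transcript start and 50 after, were listed for 8 of the 10 genes, all but Atf6 and Manf. They were searched on both strands for the ER stress response element (ERSE), which reads CCAAT, then 9 bases of any kind, then CCACG, and in which NF-Y binds the CCAAT and ATF6 the CCACG. The related ERSE-II, ATTGG and CCACG with 1 base of any kind between them, was searched in the same way. ERSE occurred in 22 of 33469 windows (0.0657%), and among them were those of Calr, Creld2 and Xbp1. ERSE-II occurred in 17 windows (0.0508%), including that of Herpud1. The windows of Hspa5 and Hyou1, ER chaperones outside the 10 genes, held ERSE and ERSE-II and are given beside them. Among other ER chaperones, the windows of Hsp90b1, Canx and Dnajc3 also held ERSE and that of Dnajb11 ERSE-II, and these are not printed. The sites are shown because 4 of the 10 genes held one or the other of these elements, each on the strand of its gene with 15 flanking bases and the fixed bases of the motif in capitals.
Xbp1, ERSE, chr14:84604543-84604591, plus strand: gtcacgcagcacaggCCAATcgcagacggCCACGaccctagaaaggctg
Creld2, ERSE in reverse, chr7:121789224-121789272, plus strand: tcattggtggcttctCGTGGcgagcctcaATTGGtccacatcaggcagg
Calr, ERSE in reverse, chr19:40213120-40213168, plus strand: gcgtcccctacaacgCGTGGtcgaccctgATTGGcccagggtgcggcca
Herpud1, ERSE-II, chr19:10614806-10614846, minus strand: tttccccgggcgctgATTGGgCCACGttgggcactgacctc
Hspa5, ERSE, chr3:38452958-38453006, plus strand: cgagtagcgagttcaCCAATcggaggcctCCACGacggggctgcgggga
Hyou1, ERSE-II in reverse, chr8:53602779-53602819, plus strand: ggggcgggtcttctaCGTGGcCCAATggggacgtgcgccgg
The Xbp1 site ended 47 bases before the start, that of Herpud1 114, that of Creld2 127 and that of Calr 214. Hyou1 held a further ERSE-II that ended 178 bases before its start. The core of the XBP1 site (UPRE core, TGACGTG, in 1.81% of windows) was found in none of the 8 windows, although it was in those of Hspa5 and Hyou1, in the second of which it overlapped the further ERSE-II. The CARE element bound by ATF4 (TGATGNAA, in 3.98% of windows) was found only in that of Herpud1, where it read in reverse and ended 177 bases before the start:
Herpud1, CARE in reverse, chr19:10614869-10614906, minus strand: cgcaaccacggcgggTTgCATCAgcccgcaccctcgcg
A match describes letters only, and the absence of one says that these letters are not in this window.

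Among the transcription factors, Atf4, the effector of the PERK arm, had signals of 10.14, 10.20, 10.26 and 10.08 on HDACI arrays 1 to 4, against 10.14, 10.28, 10.21 and 10.19 on vehicle arrays 1 to 4. The groups overlapped, with HDACI replicate 4 the lowest array and vehicle replicate 2 the highest. The difference was -0.03, with a 95% confidence interval from -0.15 to 0.08 and a standard error of 0.05 (adjusted p = 0.912 by limma). Ddit3, which encodes CHOP, a factor that can promote cell death under lasting ER stress, read 8.98, 8.95, 8.95 and 8.98 with HDACI. On vehicle arrays it read 8.99, 9.09, 8.84 and 8.88. The HDACI arrays lay within 0.03 of each other, inside the span of the vehicle arrays, and the difference was 0.02 (standard error 0.06, interval -0.11 to 0.15; adjusted p = 0.966).

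Atf6, the sensor that becomes a transcription factor, read 9.92, 9.98, 9.99 and 9.97 with HDACI, against 9.96, 10.01, 9.90 and 9.80 with vehicle. It had the highest difference of the 10 genes at 0.05 (standard error 0.05, interval -0.07 to 0.16; adjusted p = 0.857), and vehicle replicates 3 and 4 were its lowest arrays. Xbp1, the factor made active by splicing, read 11.64, 11.70, 11.72 and 11.73 with HDACI and 11.66, 11.96, 11.73 and 11.69 with vehicle. Vehicle replicate 2 stood 0.23 above the next array, and the other vehicle arrays lay among those with HDACI. The difference of -0.06 (standard error 0.07, interval -0.21 to 0.09; adjusted p = 0.864) was 0.01 without that array. For these 4 genes the median difference was -0.01, the value of all genes.

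The other 6 genes act in the lumen or at the membrane of the ER, and all 6 had a lower mean with HDACI. Manf, a secreted and ER-resident protein with neurotrophic activity, read 8.84, 8.93, 8.95 and 8.85 with HDACI, against 8.95, 9.17, 9.05 and 9.04 with vehicle. At 2 decimals the highest HDACI array and the lowest vehicle array share the value 8.95, so the groups are separated by less than 0.01. The difference was -0.16 (standard error 0.05, interval -0.28 to -0.04), a signal 10.5% lower with HDACI. Its unadjusted p was 0.0144 and its adjusted p 0.610 from limma, and the exact two-sided permutation p was 0.0286, the smallest that 4 arrays against 4 can give. Leaving out vehicle replicate 2 gave -0.12 (interval -0.23 to -0.01; unadjusted p = 0.0364 from limma). Its groups then lay apart as did those of 6.10% of all genes that were lower, and 5.20% of all genes were lower at an unadjusted p under 0.05. Leaving out vehicle replicate 1, its lowest vehicle array, could only widen the difference and gave -0.19 (unadjusted p = 0.00628 from limma). No other array, left out in turn, brought any of the 10 genes past 0.01.

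Calr, the calcium-binding lectin chaperone calreticulin, read 12.13, 12.12, 12.05 and 12.16 with HDACI, against 12.18, 12.35, 12.15 and 12.27 with vehicle. All 4 HDACI arrays lay below the vehicle median, and the groups overlapped by 1 array on each side. The difference was -0.12 (standard error 0.05, interval -0.24 to -0.003; unadjusted p = 0.0455, adjusted p = 0.640 from limma; exact permutation p = 0.0571). Without vehicle replicate 2 it was -0.09 (interval -0.20 to 0.03).

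Sdf2l1, a partner of ER chaperones of the DnaJ type, had the widest spread. It read 8.77, 8.28, 8.50 and 8.30 with HDACI, against 8.72, 8.82, 8.74 and 8.30 with vehicle. Within each group high and low arrays differed by about as much, 0.48 with HDACI and 0.52 with vehicle, and HDACI replicate 1 and vehicle replicate 4 lay with the other group. Its difference of -0.18, the lowest of the 10 genes, therefore had a standard error of 0.13 and an interval of -0.48 to 0.12 (adjusted p = 0.767 from limma). Leaving out vehicle replicate 4, its lowest vehicle array, could only widen the difference and gave -0.30 (unadjusted p = 0.0281 from limma). Leaving out HDACI replicate 2, its lowest HDACI array, could only narrow it and gave -0.12.

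Creld2, a secreted protein with cysteine-rich domains that is induced by ER stress, read 8.58, 8.56, 8.48 and 8.62 with HDACI, against 8.60, 9.00, 8.63 and 8.52 with vehicle. Its vehicle mean rested on replicate 2, which stood 0.37 above the next array. The difference of -0.12 (standard error 0.10, interval -0.34 to 0.09; adjusted p = 0.776 from limma) was -0.02 without it (interval -0.14 to 0.10). Pdia4, a protein disulfide isomerase, read 9.93, 10.08, 9.90 and 9.99 with HDACI, against 10.11, 10.27, 10.05 and 9.92 with vehicle. Replicate 2 was 0.16 above the next array, and the difference was -0.11 (standard error 0.07, interval -0.28 to 0.06; adjusted p = 0.748), or -0.05 without it. Herpud1, a membrane protein of ER-associated degradation, read 9.60, 9.52, 9.57 and 9.61 with HDACI, against 9.55, 9.73, 9.71 and 9.51 with vehicle. Vehicle arrays 2 and 3 were high and 1 and 4 were low, so the difference was -0.05 (standard error 0.06, interval -0.18 to 0.08; adjusted p = 0.869).

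**Figure D2:**
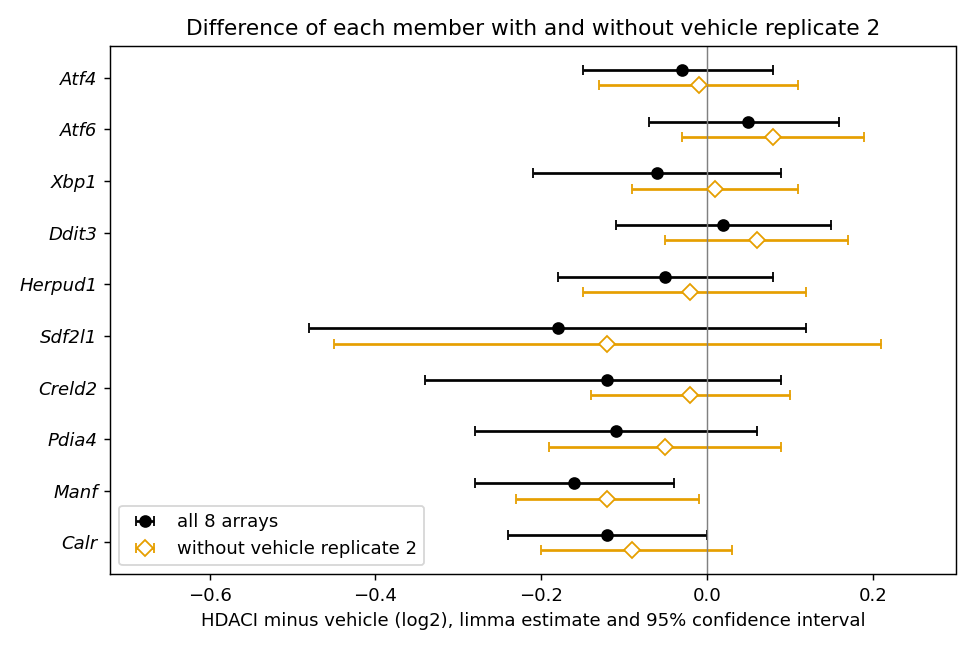
HDACI minus vehicle (log2, x axis) for each of the 10 genes (y axis), as the limma estimate with its 95% confidence interval on all 8 arrays (black circles) and without vehicle replicate 2 (open orange diamonds). The interval lies below 0 for Manf and, ending at -0.003, for Calr on all arrays, and for Manf alone without that replicate, and Xbp1 is at -0.06 with that replicate and 0.01 without it.

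The mean over the 10 genes varied more within the vehicle group than between the groups. Averaged over the 10, the HDACI arrays read between 9.83 and 9.85 and the vehicle arrays 9.89, 10.07, 9.90 and 9.81 in order of replicate. Vehicle replicate 2 stood apart and replicate 4 lay below every HDACI array. As deviations from the mean over the arrays, vehicle replicate 2 averaged 0.19 over the 10 genes and 0.23 over the 6 ER genes, against -0.05 to -0.02 on HDACI arrays for the 10. All 10 genes were above their mean on that array, and its lead over the mean of the other 3 vehicle arrays ran from 0.10 for Atf4 to 0.42 for Creld2. For Atf4, Atf6 and Herpud1 it exceeded the next array by only 0.02. The SD was larger with vehicle than with HDACI for 9 of the 10 genes (56.4% of all genes), and for 7 of the 10 once vehicle replicate 2 was left out (7257 of the 14506 genes).

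**Figure D3:**
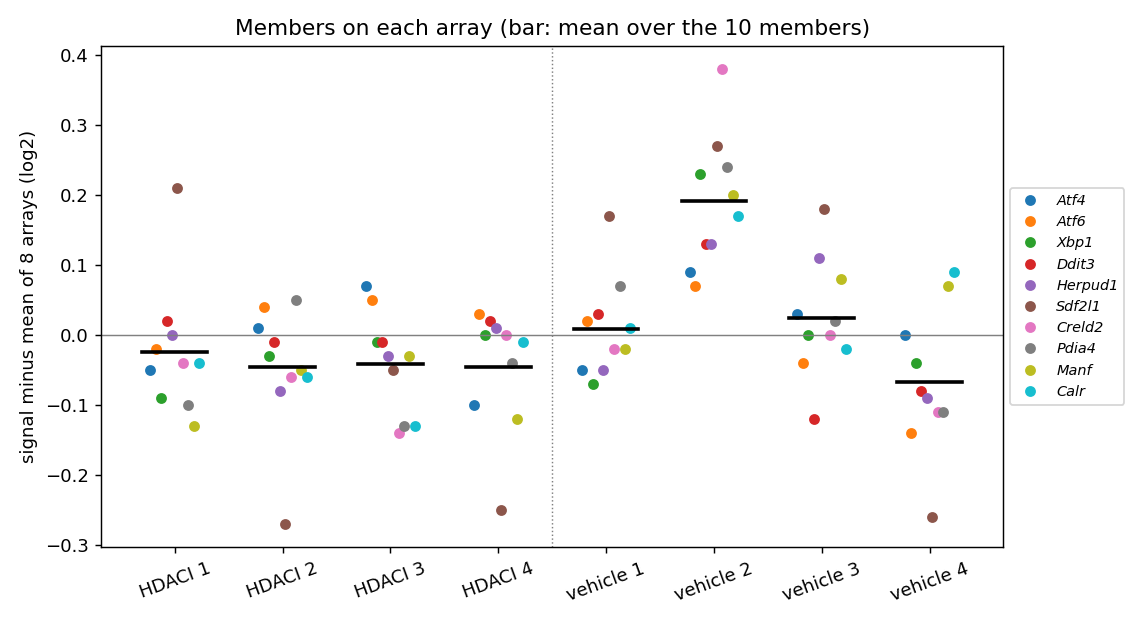
Signal of each of the 10 genes on each array as its deviation from the mean of all 8 arrays (log2, y axis), with HDACI arrays to the left of the dotted line, vehicle arrays to its right and the mean over the 10 genes as a bar. On vehicle replicate 2 all 10 points are above 0 (mean 0.19), and on vehicle replicate 4 the mean is -0.07.

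Other features of this array were measured beside it. Its quality weight in limma was 0.670, against 0.594 for vehicle replicate 4, 0.616 for HDACI replicate 2 and 1.07 to 1.61 for the rest. Of 10 neuronal markers 9 had a lower mean with HDACI. Their mean signal ran from 11.63 to 11.86 with HDACI and from 11.79 to 11.87 with vehicle. Vehicle replicate 2 was the highest at 11.87, next to HDACI replicate 1 at 11.86. By gene, HDACI replicate 1 was the highest array for 4 of the 10 and vehicle replicate 2 for 3. Astrocyte markers averaged 12.10 ± 0.06 with HDACI and 12.05 ± 0.06 with vehicle (SD, n = 4 arrays each), and oligodendrocyte markers ran from 12.49 to 12.63 with HDACI and from 12.46 to 12.59 with vehicle. The neuronal, astrocyte and oligodendrocyte levels fit the labelled cord tissue, and vehicle replicate 2 was the highest array for none of the 8 astrocyte and 7 oligodendrocyte markers. Over 10 microglial and macrophage markers, 9 of which had a higher mean with HDACI, the range was 9.82 to 10.12 with HDACI and 9.71 to 10.04 with vehicle. Of 9 endothelial and mural markers 8 had a higher mean with HDACI, and their range was 9.71 to 10.05 with HDACI and 9.75 to 9.81 with vehicle. HDACI replicate 2 was the highest array for both lists. The widest ranges were those of 5 markers of peripheral nerve and ganglion, from 7.30 to 9.46 with HDACI and from 7.37 to 9.78 with vehicle, and of 9 markers of leptomeningeal fibroblasts, from 8.67 to 9.92 with HDACI and from 8.72 to 9.35 with vehicle. Vehicle replicates 2 (9.78) and 1 (9.63) and HDACI replicate 2 (9.46) were high for the mean of the nerve and ganglion list. Of its 5 genes, Scn10a did not follow: it ran from 6.04 on vehicle replicate 2, its lowest array, to 6.41 on vehicle replicate 4. The 4 measured markers of plasma cells, which are rich in ER, and of B cells ran from 6.52 to 6.66 with HDACI and from 6.55 to 6.59 with vehicle. Jchain and Ms4a1 lay at percentiles 7.23 and 9.33 of signal over all genes, so this list says little about such cells. The part that these differences have in the values of the 10 genes was not tested, and in whole tissue fewer cells of a type cannot be told from less RNA per cell.

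The rest of the pathway was read from 8 lists by role, 95 measured genes beyond the 10. Of these, 67 had a lower mean with HDACI (70.5%, against 57.9% of all genes) and the median was -0.04. At an unadjusted p under 0.01, 2 were lower (0.855% of all genes) and 0 higher (0.607%), and none passed adjustment. At 0.05, 7 were lower, where 4.96% of all genes were, and 2 higher, where 2.79% were. Without overlap 6 were lower (3.60% of all genes) and 1 higher (1.42%). Vehicle replicate 2 was the highest array for 36 of the 95 (37.9%), and without it 61 of the 95 were lower (64.2%, again against 57.9% of all genes), with a median of -0.03. Then 1 gene was lower past 0.01 (0.965% of all genes) and 1 higher (0.703%). At 0.05, 3 were then lower (3.16%, against 5.20% of all genes) and 5 higher (against 468 of the 14506 genes).

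Rtcb, the ligase that joins the exons of Xbp1 mRNA after IRE1 has cut it, was one of the 2 genes lower past 0.01. It read 9.90, 9.91, 9.85 and 9.91 with HDACI, against 10.08, 10.11, 9.99 and 10.04 with vehicle, and every HDACI array was below every vehicle array. The difference was -0.17 (standard error 0.04, unadjusted p = 0.00292, adjusted p = 0.610 from limma), and -0.15 without vehicle replicate 2 (unadjusted p = 0.00859) or without HDACI replicate 3 (0.0107). Among the other 6 measured genes of sensors and their effectors, none passed 0.01. Eif2s1, the translation factor subunit that PERK phosphorylates, had a difference of -0.15 (unadjusted p = 0.0607 from limma) and Atf6b, a relative of Atf6, a difference of -0.12 (0.0896). Eif2ak3, which encodes PERK, had -0.01, Mbtps1 and Mbtps2, the proteases that cut ATF6, had -0.03 and -0.04, and Traf2, an adaptor of IRE1, had 0.01. Ern1 was not analysed here because no probe set was assigned to it alone.

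Derl3, a derlin of ER-associated degradation, was the other. It read 7.60, 7.52, 7.55 and 7.56 with HDACI, against 7.77, 7.87, 7.67 and 7.67 with vehicle, without overlap. The difference was -0.19 (standard error 0.05, unadjusted p = 0.00613, adjusted p = 0.610 from limma), and -0.15 without vehicle replicate 2 (unadjusted p = 0.0126). In 8 of 16 alternatives its unadjusted p exceeded 0.01. Derl3 is also one of the 4 measured markers of plasma and B cells, the other 3 of which were higher in mean with HDACI. Of 13 genes of that machinery 10 were lower in mean, with a median of -0.04. The lectin Os9 had -0.10 (unadjusted p = 0.0436 from limma) and the ATPase Vcp, which pulls proteins from the ER membrane, -0.08 (0.0592).

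Of 11 ER chaperones outside the 10 genes, 9 were lower in mean, with a median of -0.09. Averaged over the 11, HDACI arrays read 10.33 to 10.40 and vehicle arrays 10.41 to 10.52. Hspa5, which encodes BiP, the main ER chaperone and the protein that holds the sensors inactive, read 12.40, 12.33, 12.29 and 12.37 with HDACI, against 12.47, 12.74, 12.39 and 12.48 with vehicle. Again replicate 2 was far above the rest, and the unadjusted p of 0.0426 from limma was 0.0738 without it (difference -0.10). Hsp90b1, the ER form of HSP90, had -0.10 (unadjusted p = 0.0647), Hyou1, an exchange factor for BiP, -0.13 without overlap (0.0230) and Dnajb11, a DnaJ partner of BiP, -0.13 (0.0397). Sil1, another exchange factor for BiP, differed in the other direction without overlap. It read 9.20, 9.27, 9.19 and 9.20 with HDACI, against 9.12, 9.15, 9.10 and 9.10 with vehicle, a difference of 0.10 (unadjusted p = 0.0279 from limma). None of these passed 0.01. Of the 11, 8 were highest on vehicle replicate 2, and without it their median was -0.07. The 8 measured ER oxidoreductases had a median of -0.06 and no gene past 0.05, and the lowest p values were those of Txndc11 (-0.13), Pdia3 (-0.07) and Pdia6 (-0.09).

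Of 8 transcription factors of the response other than the 10 genes, 2 were lower and 6 higher in mean with HDACI, with a median of 0.08 and none past 0.01. On all 8 arrays 0 of the 8 lay above vehicle without overlap, where 1.42% of all genes did. Without vehicle replicate 2 the median was 0.10 and 3 lay above vehicle without overlap, as 414 of the 14506 genes then did. These were Creb3l2 (0.26), Creb3l1 (0.22), a further ER-anchored factor, and Nfyb (0.17), a subunit of NF-Y. Vehicle replicate 2 was the highest vehicle array for each of these 3, so leaving it out could only raise their differences. Nfyb then passed 0.01 (unadjusted p = 0.00726, adjusted p = 0.576 from limma), where 0.703% of all genes were higher. On all arrays its unadjusted p was 0.201 from limma. Creb3l1 and Nfyb were named after their values were seen. Creb3l2, an ER-anchored relative of ATF6, had a difference of 0.22 (unadjusted p = 0.0371 from limma). Atf5, a factor downstream of ATF4, had 0.10 (0.166). HDACI replicate 2 was the highest array for 4 of the 8 factors, these included. Leaving it out could only lower their differences, and gave 0.14 for Creb3l2 and 0.05 for Atf5. Atf3, an injury-induced factor that ATF4 also raises, read 7.31, 8.47, 7.55 and 7.38 with HDACI, against 8.70, 9.33, 7.34 and 8.09 with vehicle. Its high arrays, vehicle replicates 1 and 2 and HDACI replicate 2, were those with a high mean of the peripheral nerve and ganglion markers, which Scn10a did not follow. The difference of -0.69 had a standard error of 0.40 (unadjusted p = 0.121 from limma). It was -0.37 without vehicle replicate 2, its highest vehicle array (unadjusted p = 0.329 from limma), and -1.03 without vehicle replicate 3, its lowest (0.0154). The direction of both changes was fixed. The part of peripheral nerve and ganglion tissue in the values of Atf3 was not tested. Of 15 targets of ATF4 and CHOP 10 were lower in mean, with a median of -0.03 and none past 0.01. Asns, asparagine synthetase, had -0.14 (unadjusted p = 0.0332), Mthfd2, an enzyme of mitochondrial folate metabolism, -0.13 (0.0708) and Nupr1, a stress-induced chromatin protein, 0.76 with a standard error of 0.35 (0.0551), of which HDACI replicate 2 at 9.45 carried much, with 7.80 to 8.02 on HDACI arrays 1, 3 and 4 and 7.16 to 7.88 on vehicle arrays.

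Genes by which proteins enter and leave the ER had small differences. The 20 genes of entry and glycosylation had a median of -0.03, and the 13 of export and retrieval -0.04, with none past 0.05. Ssr1, of the translocon-associated complex, had -0.10, Srpra, of the receptor for the signal recognition particle, -0.09, and Sec61g, a subunit of the translocon, 0.11. Of export and retrieval, the GTPase Sar1a had -0.07 without overlap, and the coatomer subunits Copb1 and Copa had -0.08 and -0.04. For comparison, 22 of 23 chaperones of the cytosol and mitochondria were lower in mean, with a median of -0.11 and -0.07 without vehicle replicate 2. That array was the highest for 17 of the 23. Cct7 (-0.16), Cct8 (-0.15) and Tcp1 (-0.24), subunits of the cytosolic chaperonin, fell at the unadjusted threshold of 0.01, as 0.855% of all genes did. The other measured subunits were also lower in mean but did not pass it (unadjusted p from 0.0300 to 0.200 in limma). Cct8 did not pass without vehicle replicate 2 (unadjusted p = 0.0103 from limma), and over 17 alternatives Cct7 stayed past 0.01 in 16, Tcp1 in 14 and Cct8 in 12.

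**Figure D4:**
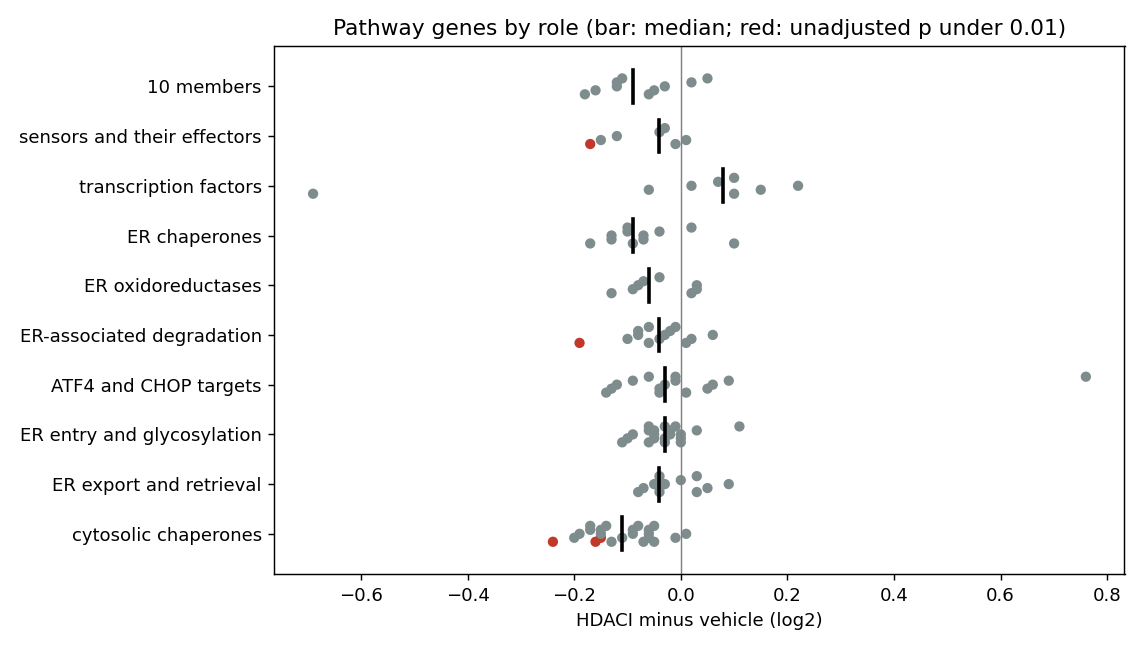
HDACI minus vehicle (log2, x axis) for every measured gene of the 10 and of 9 lists by role (y axis), with the list median as a bar and genes with an unadjusted p under 0.01 in red. The row of cytosolic chaperones also holds mitochondrial ones. Rtcb, Derl3 and the chaperonin subunits Cct7, Cct8 and Tcp1 are the red points, and the far points are Atf3 (-0.69) and Nupr1 (0.76).

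Genes that carry an ERSE or ERSE-II were also taken as a set by sequence alone, whatever their role. Of 38 such genes 28 were measured, 4 of the 10 among them. On all arrays 25 of the 28 had a lower mean with HDACI, with a range from -0.19 to 0.07 and a median of -0.06, against 6989 of 11968 measured genes with a promoter window and a median of -0.01. Vehicle replicate 2 was the highest array for 15 of the 28 (53.6%), against 18.3% of those genes. Without it the count was also 25 of 28, though Xbp1 turned to 0.01 and Cdc45, a replication factor, to -0.01, and the median was -0.05, against -0.02 over measured genes with a window. The 4 of the 10 with a match then had a median of -0.02. With those 4 left out of the set, 21 of 24 genes were lower on all arrays and 22 without vehicle replicate 2, each with a median of -0.06. That array was the highest for 11 of the 24 (45.8%). Derl3 (-0.19) and Hspa5 (-0.17) were the lowest. No test was run on this set, and several of its genes stand in the lists above, so it is not independent of them.

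**Figure D5:**
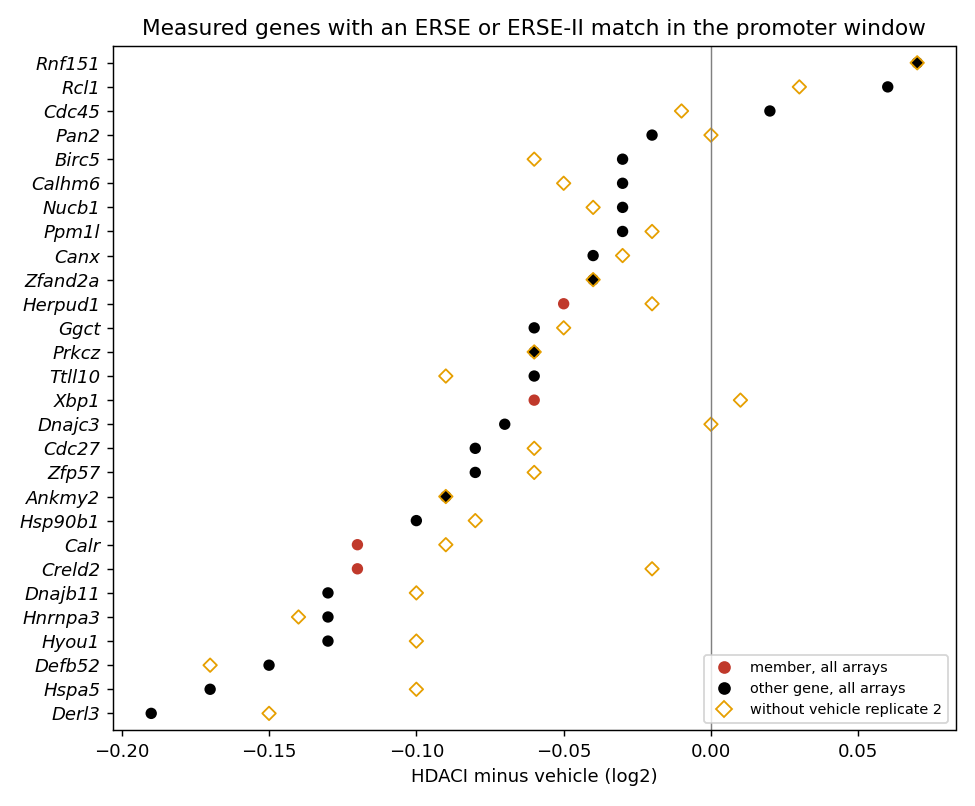
HDACI minus vehicle (log2, x axis) for the 28 measured genes with an ERSE or ERSE-II match (y axis, in order of their difference), on all arrays (filled circles, red for the 4 of the 10 genes) and without vehicle replicate 2 (open diamonds). Circles lie below 0 for 25 of the 28, and Creld2 is at -0.12 with that replicate and -0.02 without it.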

How the data were processed

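Total RNA of 8 samples, 4 per group, was labelled with a whole transcript kit and hybridized to Affymetrix Rat Gene 1.0 ST arrays. The deposited values are log2 signals: the authors ran RMA with the R package oligo, which subtracts background, makes the arrays share one distribution and summarizes the probes of each set (versions not given in the sources used here). Of 29214 probe sets, 15310 had 1 symbol in the platform annotation, updated by Entrez number through RefSeq (GRCr8). Such probe sets of a gene were averaged. HDACI and vehicle were compared over 14506 genes by limma 3.58.1 (R 4.3.3, lmFit followed by eBayes), two-sided, with Benjamini-Hochberg adjustment over all genes and no filter. The script was tested on simulated data. Calls used an unadjusted p under 0.01, as in the study, and an adjusted p under 0.05. The number of arrays limits the precision. The members and lists were chosen with earlier results of these data known. Named are the 10 members, Hspa5, Hsp90b1, all sensor genes and the 3 genes with the smallest p of each other list. Genes named for a promoter match follow from the sequence search. Alternatives were other variance moderation, signal filters, normalizations, probe set choice, array weights, the replicate number as a block and each array left out in turn.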

Additional observations from a re-analysis of the deposited data

How the results depend on the processing

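In all, 17 alternatives were run, 15 of which could alter the median of the 10 genes. The count of members past an unadjusted p of 0.01 was 0 in limma and stayed 0 in the 9 alternatives that kept all arrays, and ran from 0 to 1 when each array was left out, the 1 being Manf without vehicle replicate 1. The median difference ran from -0.10 to -0.02 when each array was left out, with -0.02 without vehicle replicate 2, and from -0.09 to -0.06 otherwise, with -0.06 where only genes above the median signal entered and Sdf2l1 dropped out. Of 169 values for single members, 165 kept their direction and their side of the threshold. Leaving out each array, Xbp1 ran from -0.09 to 0.01, Ddit3 from -0.02 to 0.06, Eif2ak3 from -0.04 to 0.02 and Traf2 from -0.02 to 0.03, so the sign of these 4 is not settled, and the cause was not tested. Over all genes, 212 passed an unadjusted p of 0.01, against 113 without HDACI replicate 4. The replicate numbers do not pair the arrays (correlations of deviations between same-numbered arrays from -0.21 to 0.23). With the replicate number as a block, 0 members and 187 genes passed, and the member median was -0.09. For Derl3, Cct7 and Cct8 the block raised the unadjusted p to 0.0152, 0.0139 and 0.0178 in limma, and for Nupr1 it lowered it to 0.00972. RMA gives all arrays one distribution, which would hide a shift common to most RNAs, and the number of arrays sets the width of the intervals.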
